A study of Vitis vinifera with 12 samples.

Results

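The miR399 family was followed on custom arrays for the small RNA of grapevine (Vitis vinifera cv Corvina) through all probes whose complement overlapped a miR399 mature sequence by 18 or more bases without a gap. This rule found 16 native probes of the 1947 for miRNA precursors (14 distinct sequences of 1579), and they stand for 7 forms of the miRNA, of which each has a probe of 21 bases and one of 20 bases. miR399a is identical to miR399h and miR399b to miR399c on this array, so that miR399a, miR399b, miR399d, miR399e, miR399f, miR399g and miR399i are the forms that differ in probe sequence. The low molecular weight RNA came from 6 tissues, with 2 arrays per tissue, each hybridized with Cy5-labelled RNA of its own extraction. The tissues were roots of plants grown in vitro, and, from field-grown plants, leaves collected before flowering, inflorescences taken 3 weeks before flowering, and berries without seeds that were green (5 weeks after flowering), at veraison (9 weeks) or mature (15 weeks). All tissues were thus of the same cultivar, and the labels name no phosphate treatment. Roots differed from the other tissues in growth condition as well as in organ, and the 2 cannot be told apart. The array carries no mRNA markers of these tissues, so the tissue labels were not checked.

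miR399 is the phosphate miRNA of plants. In Arabidopsis it accumulates when phosphate is short, moves through the phloem into the root, and cleaves the transcript of PHO2, a ubiquitin-conjugating enzyme that promotes the degradation of phosphate transporters. The cleavage therefore raises phosphate uptake and its loading into the xylem, and a non-coding RNA of the IPS1 class can hold miR399 back by pairing with it without being cut. A plant miRNA pairs with its target along nearly its whole length, and the bases close to its 5′ end weigh most in that pairing.

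The RNA sequences that the 21-base probes match are shown because the forms differ by few bases and a probe can also bind the RNA of a close relative. They are written 5′ to 3′ with the seed (bases 2 to 8) in capitals.
miR399a: uGCCAAAGgagaauugcccug
miR399b: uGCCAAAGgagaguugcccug
miR399i: cGCCAAAGgagaguugcccug
miR399d: uGCCAAAGgagauuugcucgu
miR399e: uGCCAAAGgagauuugcccgg
miR399g: uGCCAAAGgagauuugccccu
miR399f: uGCCGAAGgagauuuguccug
The seed GCCAAAG was shared by 14 of the 16 probes, whereas both miR399f probes had GCCGAAG. Counted from the 5′ end of miR399a, the substitution was A13G in miR399b, U1C with A13G in miR399i, A13U with U20G in miR399e, A13U with U20C and G21U in miR399g, A13U with C18U, U20G and G21U in miR399d, and A5G with A13U and C17U in miR399f. Base 13 therefore divided the forms into miR399a (A), miR399b and miR399i (G), and miR399d, miR399e, miR399f and miR399g (U). miR399a and miR399b differed by 1 base, miR399b and miR399i by 1, and miR399d and miR399i by 5. The miR399i probes equal miR399b except at base 1, and a shorter miR399i of the study's list lies whole inside the stretch that the 21-base miR399b and miR399i probes share, so that the signals of these forms may not be separable with these probes. The 20-base miR399b and miR399i probes lack the last base of that shorter miR399i. The 20-base miR399i probe met the rule by an overlap of 19 bases with miR399b and miR399c. In the RefSeq annotation of the grapevine assembly ASM3070453v1, 9 genes are named MIR399A to MIR399I. Of these, MIR399G, MIR399H, MIR399D, MIR399A, MIR399E and MIR399F follow each other with 0 other annotated genes between them, and the other 3 stand alone.

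A native probe and its mismatch control of the same number are shown for the 20-base miR399i and miR399b probes, on which the comparison of organs turns. Changed bases are in capitals.
native probe for miR399i: agggcaactctcctttggcg
mismatch probe for miR399i: agggAaactctTctttggcg
native probe for miR399b: agggcaactctcctttggca
mismatch probe for miR399b: agggAaactctTctttggca
Both mismatch probes carry C5A and C12T, counted from the 5′ end of the probe. Every miR399 mismatch probe differs from its native probe by 2 bases, more than some forms differ from each other.

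Intensities are given in scanner units, as medians of the replicate spots of a probe and before normalization. Over the 12 arrays the median intensity of the native probes was 3.5 to 232. The background level of an array was computed from its 14 negative and degradation controls as their mean plus 2 SD, and was 666 to 4353 (median 1421). The ubiquitin degradation control set much of it, since without this control the level was 283 to 949 (median 446). On 3 arrays (inflorescences replicate 2, veraison berries replicate 2 and mature berries replicate 2) between 58 and 82 native probes were listed at 0, which occurred on no other array. Over the 14 miR399 sequences, the Pearson correlation of log2 normalized intensity between both arrays of a tissue was 0.98 in roots, 0.83 in leaves, 0.62 in inflorescences, 0.75 in green berries, 0.69 at veraison and 0.56 in mature berries. Sequences are not independent of each other, and these values are a description.

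miR399a, miR399b and miR399i gave their highest signals in roots. In whole tissues such as these, fewer cells that carry a miRNA and less of it per cell cannot be told apart. The 20-base miR399i probe had 2297 and 2180 units in roots, against 119 and 111 in leaves and 351 and 123 in inflorescences. In berries it had 323 and 480 units when green, 362 and 386 at veraison and 391 and 323 when mature. Both root arrays lay far above the other 10, of which the highest reached 480. The 21-base miR399i probe had 1249 and 2332 units in roots, against 139 and 150 in leaves, 543 and 425 in inflorescences and between 206 and 519 in berries. The root arrays again did not overlap with any other tissue.

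The 20-base miR399b sequence stands on the array as 2 separate probes. The first had 879 and 1476 units in roots, 30 and 92.8 in leaves and 283 and 44 in inflorescences. The other had 1210 and 1502 units in roots, 37 and 61 in leaves and 290 and 61 in inflorescences. On the 6 berry arrays both together spanned 110 to 344 units. The brighter of these identical probes exceeded the dimmer by a median factor of 1.11 and by at most 1.52 on any array, which is small beside the distance between roots and the other tissues. The 21-base miR399b probe had 1054 and 1355 units in roots, 91 and 105 in leaves, 423 and 164 in inflorescences and 172 to 534 in berries.

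miR399a also gave a signal on the first inflorescence array. Its 21-base probe had 832 and 2224 units in roots, 171 and 64 in leaves and 728 and 258 in inflorescences, with 170 to 287 in berries. The first inflorescence array thus came close to the first root array. The 20-base miR399a sequence, again present as 2 probes, had 426 to 1048 units in roots, 40.5 to 118 in leaves, 83 to 576 in inflorescences and 102 to 221 in berries. Before normalization the inflorescence and root arrays of this sequence overlapped.

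**Figure D1:**
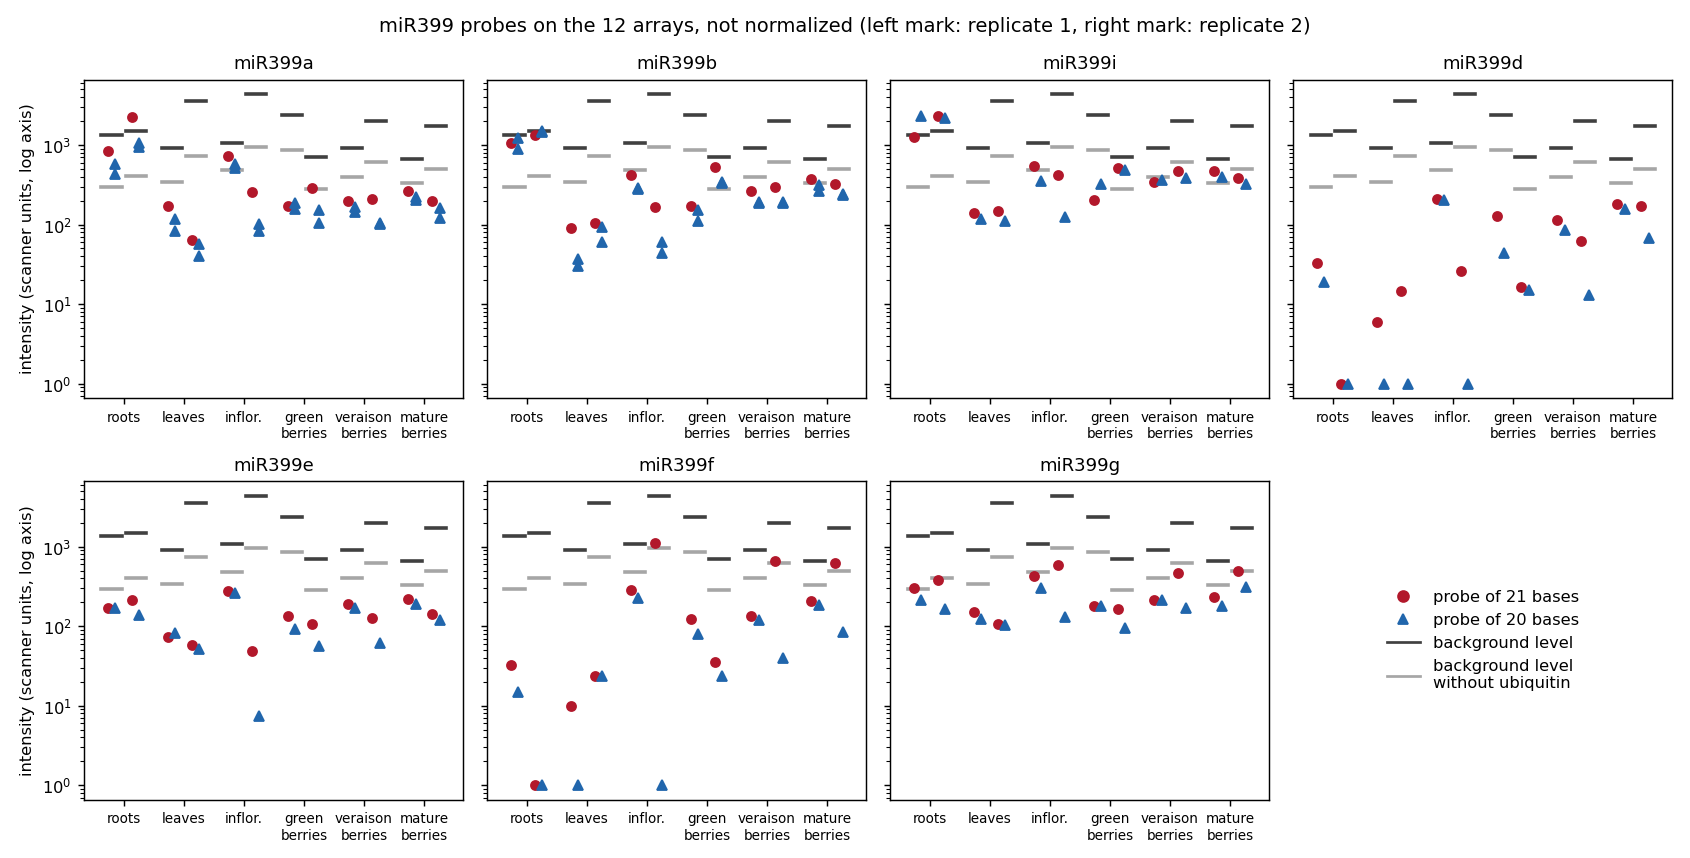
Intensity (scanner units, log axis, not normalized) of every miR399 probe on each of the 12 arrays, by tissue, with circles for 21-base and triangles for 20-base probes and short lines for each array's background level with and without the ubiquitin control. The miR399a, miR399b and miR399i probes had 426 to 2332 units on the root arrays, whereas miR399d and miR399f stayed at or under 33 there.

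The other forms showed no such root signal. The miR399d probes had 33 and 1 units (21 bases) and 19 and 1 units (20 bases) in roots, and at most 209 on the other 10 arrays. The miR399f probes had 32.5 and 1 units (21 bases) and 15 and 1 units (20 bases) in roots. Their 20-base sequence stayed at or under 225 units elsewhere. Both are thus at the dim end of the scale in roots, where an intensity of 1 is the lowest value listed. The miR399e probes had 140 to 216 units in roots and 7.5 to 280 elsewhere. The 21-base miR399g probe had 305 and 387 units in roots, 150 and 106 in leaves and 423 and 580 in inflorescences. After normalization its log2 mean was 8.87 in roots, 7.78 in leaves and 8.42 in inflorescences, so that the order of roots and inflorescences depended on the normalization. Its 20-base probe had 211 and 163 units in roots and 96 to 308 elsewhere.

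The 21-base miR399f probe was bright on the 3 arrays that list probes at 0 and on no others. It had 1111 units on the second inflorescence array, 653 on the second veraison array and 632 on the second mature array, against 10 to 282 on the remaining 7 arrays outside roots. The mismatch probe was also bright there, at 523, 335 and 513 units, and the 20-base miR399f probe had 1, 39.5 and 84.5 units on the same 3 arrays. The part of the library or array in this signal was not tested.

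Presence was read with the background level and the mismatch ratio of the methods, by which a native probe must exceed the background and, by more than 1.2 times, its mismatch probe, and both conditions were required here on both arrays of a tissue. Of 96 pairs of a miR399 probe and a tissue, 1 was called present, the 20-base miR399i probe in roots, where both arrays (2297 and 2180 units) exceeded their background levels of 1347 and 1494. Only the second root array was above background for the 21-base miR399a and miR399i probes and for one of the identical 20-base miR399b probes. No miR399 probe was above this background on any array of leaves, inflorescences or berries. In roots, 90 of the 1947 native probes (4.62%) were present by this rule, and in leaves 19 (0.976%). Where 1 array was enough, 4 of the 96 pairs were present, all in roots.

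With the ubiquitin control left out of the background, an alternative chosen with earlier results of these data known, 8 of the 96 pairs were present. All 8 were in roots, namely every probe for miR399a, miR399b and miR399i, and 203 native probes (10.4%) were present there in all. In the other tissues single arrays of these 8 probes passed, without a partner. On the second green berry array 6 of them did so (the 21-base miR399a probe and all miR399b and miR399i probes), on the first inflorescence array 4 (all miR399a probes and the 21-base miR399i probe), and on the first mature array 3. Of all native probes, 19.3%, 17.2% and 16.3% were above this level on these arrays, in the same order. miR399d, miR399e and the 20-base miR399f and miR399g probes were above this lower level on no array. Without the first root array, presence in roots rested on the second alone and 4 pairs were present with ubiquitin in the background. With both ubiquitin and the Lambda Spike 8 control left out, 16 pairs were present, 9 in roots and 7 outside. The 7 were the 20-base miR399i probe in all 3 berry stages, the 21-base miR399i probe at veraison and in mature berries, the 21-base miR399b probe in mature berries and the 21-base miR399g probe in inflorescences.

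The comparison of organs asked which miRNAs differ among roots, leaves and inflorescences. For this, intensities were quantile-normalized over the native probes, put on the log2 scale, and tested with limma's moderated F test on all 12 arrays with the Benjamini-Hochberg adjustment over 1579 sequences. miR399 passed with 2 of its 14 sequences, the 20-base probes of miR399b (adjusted p = 0.0191) and miR399i (adjusted p = 0.0178). Over all sequences 48 passed, or 3.04%. This count was 16 without the first and 15 without the second root array, 28 and 24 without the first or second inflorescence array, and 30 and 26 without the first or second veraison array. A fit without the 3 arrays that list probes at 0 has only the first inflorescence array left, and its calls are not given. On all 12 arrays the counts at an unadjusted p under 0.05 were 6 of 14 and 134 of 1579. The 6 were all probes for miR399a, miR399b and miR399i. The adjusted p was 0.197 and 0.167 for the 21-base and 20-base miR399a probes, 0.144 for the 21-base miR399b probe and 0.170 for the 21-base miR399i probe. It was 0.583 or higher for miR399d, miR399e, miR399f and miR399g.

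miR399i and miR399b were higher in roots than in both other organs. The log2 normalized intensity of the 20-base miR399i probe averaged 11.01 ± 0.40 in roots, against 7.67 ± 0.09 in leaves and 7.49 ± 0.54 in inflorescences (SD, n = 2 each). The difference was 3.34 ± 0.65 (SE) for roots minus leaves (adjusted p = 0.0212 in limma) and 3.52 ± 0.65 for roots minus inflorescences (adjusted p = 0.0114). For the 20-base miR399b probe, the average was 10.32 ± 0.19 in roots, 6.80 ± 0.52 in leaves and 6.91 ± 0.41 in inflorescences (SD, n = 2 each). Its difference was 3.52 ± 0.67 (SE) for roots minus leaves (adjusted p = 0.0180 in limma) and 3.41 ± 0.67 for roots minus inflorescences (adjusted p = 0.0157). These were 2 of 14 miR399 sequences called higher in roots for each contrast and 0 called lower, while 1.58% of all sequences were called higher in roots than in leaves and 1.9% higher than in inflorescences. The median difference over the 14 sequences was 1.10 for roots minus leaves and 1.38 for roots minus inflorescences, beside 0.00 and -0.04 over all 1579.

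Both calls rest on both root arrays. Without the first root array the adjusted p in the F test was 0.167 for miR399b and 0.225 for miR399i, and without the second it was 0.193 and 0.132. With arrays scaled on the positive controls, neither passed (adjusted p = 0.286 and 0.155), although the differences between roots and leaves were then 5.32 and 5.13. In the methods' one-way test on the 6 organ arrays, no sequence of the array passed after adjustment, and the adjusted p over all 1579 sequences was 0.296 for both. Before adjustment, 109 sequences were under 0.05 in that test, among them 6 of the 14 miR399 sequences, which were both probes of miR399b and of miR399i, the 21-base miR399e probe and the 20-base miR399g probe. Leaving out either leaf array took away both calls for roots minus leaves (adjusted p between 0.0531 and 0.114 in limma), with differences of 3.11 to 3.80. For roots minus inflorescences, miR399b lost its call without the first (adjusted p = 0.0670) or second inflorescence array (0.105), and miR399i without the second (0.0975 in limma).

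Because no leaf, inflorescence or berry array was above background, a fold can be given only as a bound. Against the lowest normalized signal above background in the other tissue, the 20-base miR399i probe in roots was at least 1.02-fold higher than in inflorescences, 1.62-fold than in green berries, 1.47-fold than at veraison and 1.11-fold than in mature berries. For leaves no bound above 1 was obtained. With the background that leaves out ubiquitin, the bounds were at least 3.39-fold for leaves, 4.38-fold for inflorescences and 4.22-fold for veraison berries. For the 20-base miR399b probe only 1 root array was above the background with ubiquitin. Its bound there was barely above 1 for green berries, and no bound above 1 was obtained for any other tissue. On the background without ubiquitin, this probe was at least 2.10-fold higher in roots than in leaves and 2.71-fold than in inflorescences. It was at least 2.61-fold higher than at veraison and 2.83-fold than in mature berries on that background. A tissue with 1 array above that level has no bound here.

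The remaining miR399a, miR399b and miR399i probes had differences in the same direction that did not pass. The 21-base miR399b probe differed by 2.77 ± 0.75 (SE) between roots and leaves (adjusted p = 0.122 in limma) and the 21-base miR399i probe by 2.69 ± 0.73 (adjusted p = 0.122). For miR399a the difference was 2.80 ± 0.76 with 21 bases (adjusted p = 0.122) and 2.57 ± 0.67 with 20 bases (adjusted p = 0.113). The differences of miR399a against inflorescences were smaller, at 1.88 ± 0.76 and 1.77 ± 0.67 (adjusted p = 0.422 and 0.348). miR399e differed by 1.11 ± 0.51 and 0.83 ± 0.53 between roots and leaves, and miR399g by 1.09 ± 0.59 and 0.43 ± 0.62, with adjusted p of 0.693 or higher. The values for miR399d and miR399f lay between -0.23 and 0.46. With no normalization, and likewise with scaling to the 75th percentile, 7 of the 14 sequences passed the F test among organs in limma, namely all 6 of miR399a, miR399b and miR399i and the 21-base miR399f probe. Over the array, 135 of 1579 sequences passed with no normalization and 67 with the 75th percentile. The 21-base miR399f probe ran the other way, with roots minus inflorescences at -3.48 ± 0.88 (SE) with no normalization and -2.76 ± 0.82 with the 75th percentile. Both settings put values under 50 units at 50, and this probe had 32.5 and 1 units in roots. The size of its difference therefore depends on that floor. Without the 3 arrays that list probes at 0 the difference was -2.49 ± 0.59 and -1.84 ± 0.36, with only the first inflorescence array left. On that array the probe had 281.5 units, its mismatch probe 233 and the median native probe 232. With quantile normalization on all arrays its difference was -2.29 ± 0.93 (adjusted p = 0.422 in limma). With that normalization and without those 3 arrays it was -1.11 ± 0.55.

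**Figure D2:**
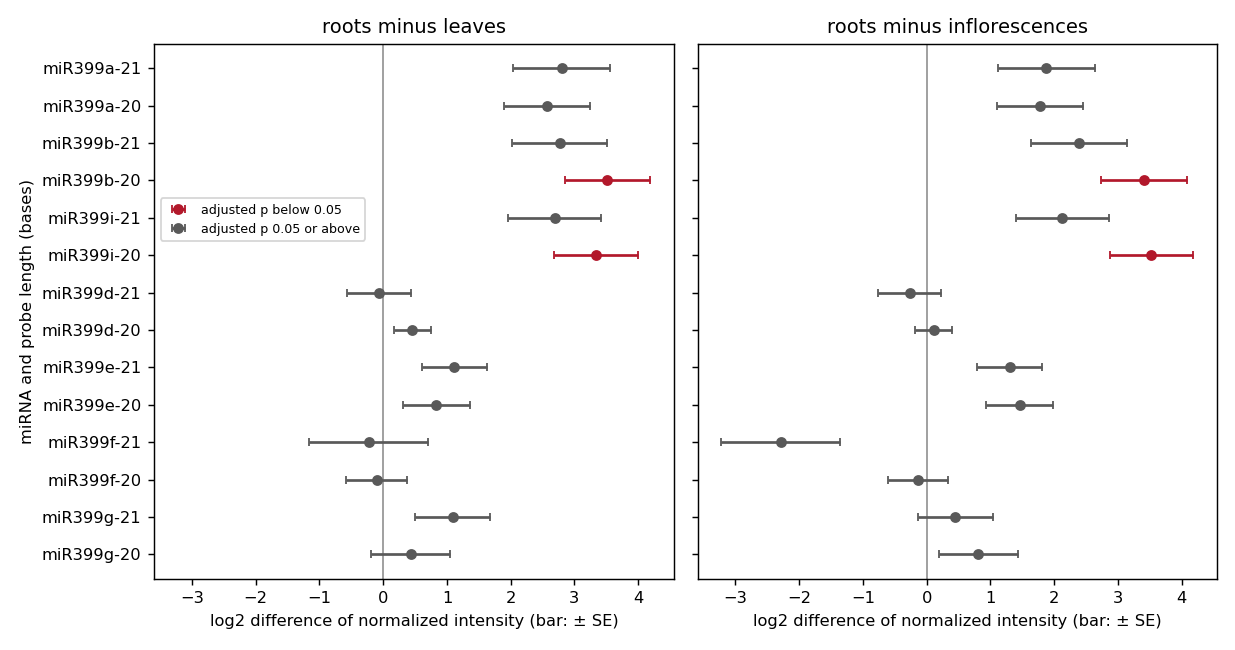
Log2 difference of normalized intensity between roots and leaves (left) and between roots and inflorescences (right) for the 14 miR399 sequences, with bars of ± 1 SE and red points where the adjusted p was below 0.05. The 6 sequences of miR399a, miR399b and miR399i lie between 1.77 and 3.52, and the 20-base probes of miR399b and miR399i are the 2 that passed.

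Over all 6 tissues, no miR399 sequence passed the F test, whose calls made up 1.46% of all sequences (23, or 7 and 10 without the first or second root array). The lowest adjusted p was 0.0836, for the 20-base miR399b and miR399i probes. In this F test 6 of 14 had an unadjusted p under 0.05, beside 189 of all 1579 sequences. Without the 3 arrays that list probes at 0, only the first array of inflorescences, veraison berries and mature berries is left, so calls of that fit are not given. In normalized values both root arrays were above all other 10 arrays for 9 of the 14 sequences, that is all probes of miR399a, miR399b, miR399i and miR399e and the 20-base miR399g probe. Over all sequences this held for 55, or 3.48%. No other tissue had both arrays above the rest for any miR399 sequence. Over all sequences, the share in those tissues was also low, from 1.08% (veraison berries) to 3.48% (mature berries).

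Roots had the highest mean normalized intensity of the 6 tissues for all 6 sequences of miR399a, miR399b and miR399i. The difference to the tissue with the next mean was 2.33 ± 0.65 (SE) for the 20-base miR399i probe (adjusted p = 0.120 in limma) and 2.25 ± 0.67 for the 20-base miR399b probe (adjusted p = 0.149), and 1.60 to 1.88 for the other 4 sequences. All arrays of the other 5 tissues were below the background level (with ubiquitin) for these probes, so that no order was read among them. No neighbouring tissues by mean differed with an adjusted p under 0.05 for any of the 14 sequences.

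Ripening of the berry brought no detectable change. None of the 14 miR399 sequences passed the F test over green, veraison and mature berries (adjusted p 0.838 or higher in limma), none had an unadjusted p under 0.05, and no sequence of the array passed, so that 0% were called. At an unadjusted p under 0.05 there were 109 over the array, and 83 by the methods' one-way test. The 20-base miR399i probe had a log2 normalized intensity of 8.46 ± 0.76 in green, 8.45 ± 0.45 in veraison and 8.68 ± 0.88 in mature berries (SD, n = 2 each). Mature minus green was 0.22 ± 0.65 (SE) for it and 0.36 ± 0.67 for the 20-base miR399b probe. The widest difference in this contrast was that of the 21-base miR399f probe, at 1.69 ± 0.93 (adjusted p = 0.547), which was 0.46 ± 0.55 (adjusted p = 0.756) without the 3 arrays that list probes at 0. These fits had only the first veraison and the first mature array left, so no calls are read from them.

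The mismatch probes tell how far a signal depended on exact pairing. The native over mismatch ratio was above 1.2 in 157 of 192 pairs of a miR399 probe and an array (81.8%), against 49.3% over all native probes. The native probes include those for shifted, star and loop positions, and the share over the other mature miRNA probes was not computed. In roots the ratio was above 1.2 on both arrays for every probe of miR399a, miR399b and miR399i. The 20-base miR399i probe had ratios of 65.6 and 2180 in roots, and the second is large because the mismatch probe was at 1 unit there. The 21-base probes of the same forms had lower ratios in roots, 14.95 and 41.1 for miR399b and 11.2 and 34.8 for miR399i. Outside roots these 2 probes fell under 1.2 on some arrays, down to 0.394 for miR399b and 0.334 for miR399i, both on the second leaf array. On that array the native probes had 105 and 150 units and the mismatch probes 266 and 448.

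The 21-base miR399e probe stood apart in this measure. Its mismatch probe was brighter than the native probe on all 10 arrays outside roots, with ratios of 0.228 to 0.892, and only in roots was the ratio above 1.2 (1.33 and 2.89). The 20-base miR399e probe, in contrast, exceeded 1.2 on 11 of 12 arrays, with a median ratio of 2.68. The 20-base miR399f probe exceeded 1.2 on 5 of 12 arrays and on neither root array. For the 20-base miR399d probe it was 7 of 12 arrays.

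**Figure D3:**
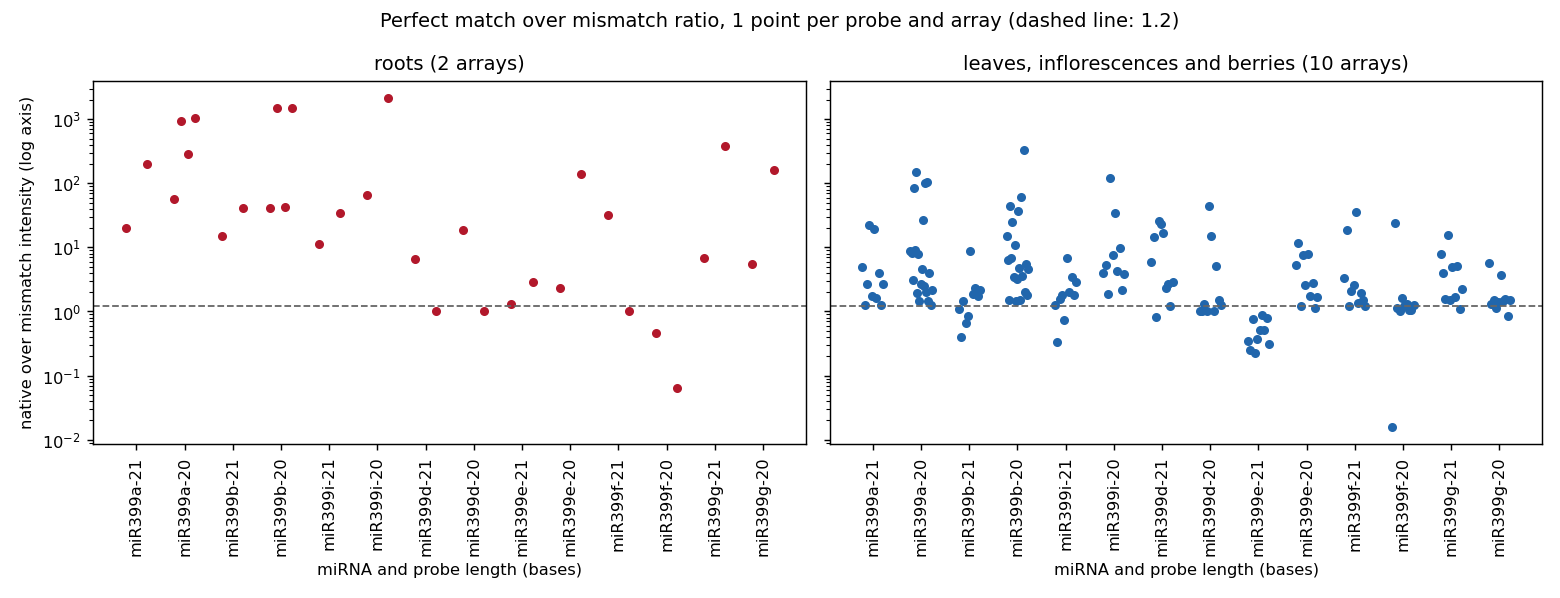
Native over mismatch intensity (log axis) of each miR399 probe on the 2 root arrays (left) and on the other 10 arrays (right), 1 point per probe and array, with a dashed line at 1.2. All points of miR399a, miR399b and miR399i in roots lie above 11, and the 21-base miR399e probe lies below 1 on all arrays outside roots.

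Probes shifted along the precursor were read beside the miR399 probes in roots. The 9 probes that start 5 bases upstream share 15 bases with the mature miRNA and had 64.5 to 624 units on the root arrays (median 121). The 3 for miR399b and miR399i were the ones that were high on the second root array, at 514 to 624 units, and on the first they had 95 to 186. The 9 probes shifted 6 bases downstream share the same number of bases but had 1 to 130 units (median 32.8). With a shift of 10 bases, the range was 1 to 87.5 units upstream (median 9) and 1 to 69 downstream (median 1.25). Outside roots the mature position was not always the brighter. On the first green berry array the 3 probes 5 bases upstream of miR399b and miR399i had 492 to 498.5 units. The miR399b and miR399i probes had 109.5 to 323 there. On the second green berry array the order was reversed, at 84 to 182 units against 334 to 533.5. No shifted probe and no miR399 mismatch probe was above the background level on any of the 12 arrays (0 of 432 and 0 of 192 pairs of a probe and an array). With ubiquitin left out of the background, 5 shifted pairs and 1 mismatch pair were above it. These were the 3 upstream probes for miR399b and miR399i on the second root array (514 to 624 units, against a level of 407), 1 upstream miR399a probe on the first leaf array (374 against 340), and, on the second mature array (level 498), 1 downstream miR399e probe (508) and the mismatch of the 21-base miR399f probe (513). These probes differ in sequence and may bind with different strength, so their levels are given side by side and were not tested.

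**Figure D4:**
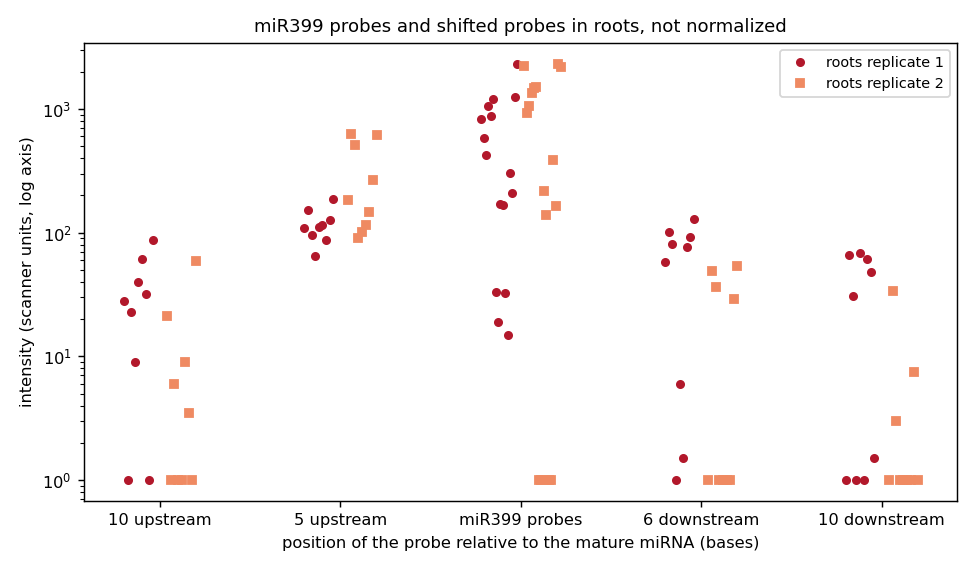
Intensity (scanner units, log axis, not normalized) in roots of the miR399 probes and of the probes shifted along the same precursors by 5 or 10 bases upstream and 6 or 10 bases downstream, with circles for root replicate 1 and squares for replicate 2. Values reach 2332 for the miR399 probes, 624 for a shift of 5 bases upstream and 130 or less for the other shifts.

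Within the family, the profiles over the 12 arrays were most alike between miR399b and miR399i, with a Pearson r of log2 normalized intensity of 0.98 for the 21-base and 0.96 for the 20-base probes, which differ in 1 base. The 21-base and 20-base probes had an r of 0.97 for miR399a, 0.96 for miR399b, 0.90 for miR399i and 0.89 for miR399e. Outside the family, 129 other mature miRNA sequences were set against each member. The most similar to the 20-base miR399i probe were miR408 with 20 bases (r = 0.92), miR398b/miR398c (0.90) and miR397a/miR397b with 20 bases (0.88). For the 20-base miR399b probe they were both miR408 probes (0.92 and 0.89) and miR397a/miR397b with 20 bases (0.87), and for the 21-base miR399a probe miR408 with 20 bases (0.88), miR171b (0.87) and miR408 with 21 bases (0.86). The arrays are shared by all these profiles and the roots alone can set such an r, so that it is a description over 12 arrays.

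Among these partners, miR397, miR398 and miR408 are tied to another nutrient, whereas miR171b is not one of that group. These 3 families cut transcripts of copper proteins (laccases, superoxide dismutase and plantacyanin) and accumulate in Arabidopsis when copper is short. Among organs, 5 of the 6 sequences of these families passed the F test and all 5 were higher in roots than in leaves and inflorescences, the exception being miR398a. The difference between roots and leaves was 6.75 ± 0.91 (SE) and 6.96 ± 0.84 for the 21-base and 20-base miR408 probes, 6.27 ± 0.63 and 6.20 ± 0.59 for miR397a/miR397b, and 5.99 ± 0.56 for miR398b/miR398c, with adjusted p of 0.00129 or lower in limma. In roots these sequences had log2 normalized intensities of 12.22 to 14.99, and 6.23 to 8.24 in leaves. miR395, which acts on sulfate transport and assimilation and accumulates in Arabidopsis when sulfate is short, had 0 of 4 sequences called. For the probes of miR395a to miR395m, roots minus leaves was -2.46 ± 0.80 and -1.88 ± 0.76 (adjusted p = 0.295 and 0.572). The list was chosen with earlier results of these data known.

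**Figure D5:**
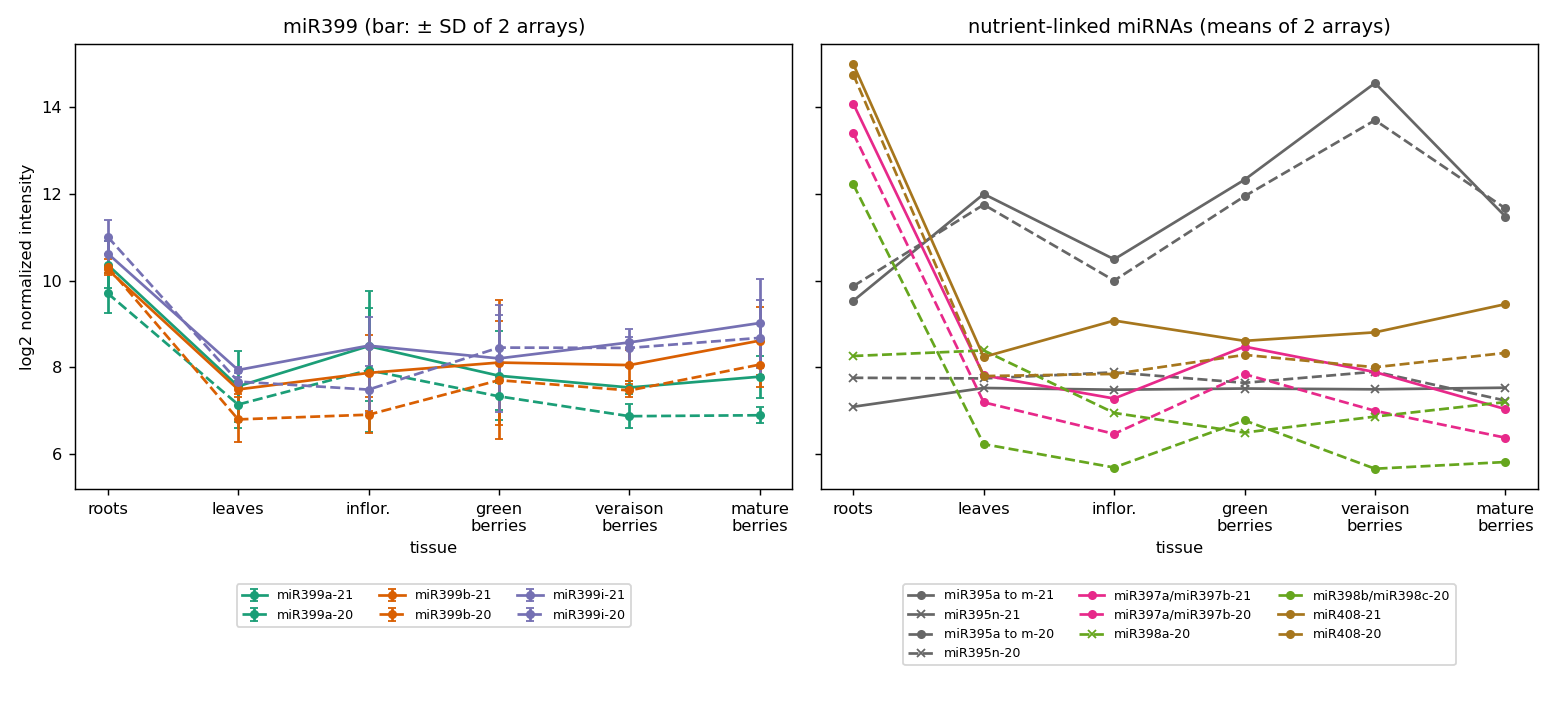
Log2 normalized intensity by tissue for the miR399a, miR399b and miR399i probes (left, mean with bars of ± 1 SD of 2 arrays) and for the miR395, miR397, miR398 and miR408 probes (right, means of 2 arrays), with full lines for 21-base and dashed lines for 20-base probes. The miR397, miR398b/miR398c and miR408 means in roots (12.22 to 14.99) stand above their own means in every other tissue, as do those of the miR399 probes shown (9.71 to 11.01).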

How the data were processed

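The authors hybridized RNA of 6 tissues of grapevine, with 2 extractions each, to 12 single-colour arrays (stripped and re-used slides) and deposited, per the labels, the median and SD of the spot intensity of each probe, not normalized, and a second table whose intensities they had quantile-normalized over every probe. No source used here states if local background was subtracted. Probe sequences of the files were set against the mature sequences of the study to find the family. Members, lists and tests were chosen with earlier results of these data known.

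Medians were quantile-normalized over the 1947 native probes, with 1 as the lowest value, and rows of identical sequence were averaged on the log2 scale. The 6 tissue means were fitted with lmFit and eBayes with an intensity trend (limma 3.58.1 in R 4.3.3), with F tests over 3 organs, 3 berry stages and 6 tissues and contrasts between 15 pairs of tissues. P-values were adjusted by Benjamini-Hochberg over 1579 sequences at a threshold of 0.05, and the fit was tested on simulated data. P-values measure the spread between 2 extractions and their arrays. No source used here states if they came from separate plants. Precision is limited by the number of arrays and by how far signals exceed background. A bound on a fold sets the lower tissue, per array, at the higher of its own value and the lowest normalized signal above background. Named miRNAs are all members, the 3 mature miRNAs outside the family most correlated with each member (for which the text gives those of 3 probes), and the nutrient-linked families miR395, miR397, miR398 and miR408. Alternatives for the normalization, log scale, filters, arrays, spread, weights, replicate block, test, background level and mismatch ratio were tried. Fits without the 3 arrays that list probes at 0 were added after the data were examined.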

Additional observations from a re-analysis of the deposited data

How the results depend on the processing

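In the 22 alternatives to the fit that gave a value for them, the differences of roots minus leaves and roots minus inflorescences of the 6 miR399a, miR399b and miR399i sequences stayed above 0 (lowest 0.78, for the 20-base miR399a probe against inflorescences). With no normalization, the calls were 135 among organs, 1 among berry stages and 141 over the 6 tissues, and 6 miR399 sequences were called higher in roots than in leaves (2 in the fit as reported). Scaling to the 75th percentile gave 67 for organs, 1 for berries, 105 for the 6 tissues and 6 miR399 sequences, and scaling on the positive controls 16 for organs, 10 for berries and 0 miR399 sequences. Against the median over all sequences, which these settings moved to -0.97 with no normalization and -0.55 with the 75th percentile for roots minus inflorescences, the direction was the same. Filters gave 24 of 77 sequences among organs (present in the comparison), 35 of 182 over the 6 tissues (above background on 2 arrays) and 44 of 143 (mature miRNAs). Among mature miRNAs alone, miR399 had 6 of 14 called among organs and 3 of 14 over the 6 tissues (2 and 0 in the fit as reported). Of all 143 mature sequences, 36 were called among organs and 44 over the 6 tissues. The 6 organ arrays alone gave 30. For the 6 tissues, no intensity trend gave 36 and array weights 47. The methods' one-way test gave 109 among organs and 83 among berry stages unadjusted, and 0 adjusted for organs. Leaving out 1 array gave 15 to 48 for organs, 0 to 2 for berries, 7 to 29 for the 6 tissues, 0 to 3 for miR399 sequences higher in roots than in leaves and 1 to 4 pairs present. Without the 3 arrays that list probes at 0 the counts were 90 for berries, 192 for the 6 tissues and 4 for miR399, and the miR399i difference from inflorescences was 3.26 (adjusted p = 0.0586 in limma). Pairs present numbered 8 without ubiquitin in the background, 16 without ubiquitin and Lambda Spike 8 (7 of them outside roots), and 4 where 1 array was enough. The cause of these shifts was not tested. With the replicate block, organs had 48, berries 0, the 6 tissues 23 and miR399 2, as without it. Same-numbered arrays deviated together, with a correlation above 0.1, in 6 of 15 pairs of tissues (-0.43 to 0.64), so the numbers were not taken as pairs. The 3 highest (0.60, 0.64 and 0.64) were among inflorescences, veraison berries and mature berries, whose second arrays list probes at 0.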

Other observations

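The brightness of the 21-base miR399f probe on the 3 arrays that list probes at 0 had counterparts elsewhere on the array. In normalized values, 102 of 1579 sequences (6.46%) were higher on all 3 of these arrays than on each of the other 9, and miR399f was the only member of the family among them. Of the shifted probes, the one that lies 10 bases downstream of miR399e had 632 units on the second inflorescence array, 387 on the second veraison array and 508 on the second mature array. On the first arrays of these tissues it had 247, 116.5 and 134 units, in the same order, and in leaves 9.5 and 61.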
